A study of Mus musculus with 12 samples.

Results

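Methylation of the histone H3 lysine known as H3K27 is placed and removed by a small set of enzymes, and 7 genes of that set were followed here: the demethylases Kdm6b and Kdm6a, the methyltransferases Ezh1 and Ezh2, and Eed, Suz12 and Jarid2, which work with the methyltransferases. They were found as the probe sets whose platform annotation names exactly 1 gene, one of these 7. That gave 23 probe sets of the 34945 that name 1 gene, and each gene was read from its brightest probe set over the 12 arrays, so that 7 of the 18193 genes measured are described. Kdm6b was selected on its estradiol minus control differences in both cell fractions, which were already known from these arrays, so its estradiol values are given as a description with no test. The other 6 genes were added for their role.

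Methyl groups on H3K27 are written by Polycomb repressive complex 2 (PRC2), in which Ezh1 or Ezh2 is the catalytic subunit and Eed and Suz12 are needed for its activity. Trimethylated H3K27 marks genes that are kept silent. Kdm6a and Kdm6b are oxygen- and 2-oxoglutarate-dependent enzymes with a Jumonji C domain that take the mark off, and in macrophages Kdm6b is known as a gene that inflammatory signals induce.

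Bone marrow of female C57BL/6 mice aged 6 weeks was put in primary culture as whole marrow and treated for 1 week with 17β-estradiol, the chief estrogen of the circulation, at 1 nM, or left untreated. Cells labelled c-kit+ stem cells and cells labelled CD44+ stromal cells were then taken from the cultures. The 4 groups were c-kit+ cells from estradiol cultures, c-kit+ cells from control cultures, CD44+ cells from estradiol cultures and CD44+ cells from control cultures, with 3 arrays each. The labels do not say whether the 3 replicates came from separate cultures or animals, so p-values here measure the spread between these arrays, which may be technical. All values are log2 expression levels as deposited, a difference of 1 is a doubling, and levels are compared between groups for 1 probe set at a time.

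The fractions were checked against marker genes before the members were read. In these female cells 6 Y-linked genes gave a range of 3.04 to 6.37. Its upper end was set by Sry alone, and without Sry it ended at 4.54. Kit, the gene of the c-kit receptor, read 3.79 to 4.22 on all 12 arrays, within that range with or without Sry. It did not set the fractions apart (c-kit+ minus CD44+ 0.01 in estradiol and -0.04 in control cultures), and the label c-kit+ is therefore used only as the name of the fraction. Cd44 did not pass between the fractions either (-0.19 in estradiol and -0.19 in control cultures, limma adjusted p = 0.782 and 0.615). The label CD44+ is likewise used only as a name. Both fractions read high for most macrophage genes, with Csf1r, the receptor for macrophage colony-stimulating factor, at 13.86 to 14.11. Itgam, of the same list, read lower, at 6.24 to 8.07. The mean of 8 macrophage and monocyte markers was 12.28 to 12.67 in c-kit+ estradiol, 12.37 to 12.51 in c-kit+ control, 12.29 to 12.51 in CD44+ estradiol and 12.08 to 12.31 in CD44+ control arrays. The mean of 7 mesenchymal stromal markers was 5.58 to 6.59 in c-kit+ and 7.48 to 9.06 in CD44+ arrays. In control cultures 6 of the 7 passed by limma (adjusted p under 0.05) as lower in the c-kit+ fraction. Of all genes 2.3% passed there, 320 lower and 98 higher in c-kit+ cells. The remaining marker, Lum, read 3.43 to 3.85 on all 12 arrays and differed by -0.05. A bulk level cannot tell fewer cells of a type from less RNA per cell. The 3′ minus 5′ reading of the Gapdh control probe sets, which grows as RNA is degraded or shortened, was 4.23 to 6.17 in c-kit+ estradiol, 4.62 to 5.35 in c-kit+ control, 3.32 to 4.31 in CD44+ estradiol and 2.83 to 4.14 in CD44+ control arrays. It overlapped between estradiol and control within each fraction.

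Kdm6b, the inducible demethylase, was higher with estradiol in both fractions. In c-kit+ cells its brightest probe set, 1456610_at, read 11.02, 11.31 and 11.16 on the estradiol arrays, against 10.11, 9.96 and 9.44 on the control arrays. In CD44+ cells the same probe set read 11.35, 11.43 and 11.53 on the estradiol arrays, against 10.34, 9.90 and 9.76 on the control arrays. Every estradiol array lay above every control array of both fractions, and the lowest estradiol array (11.02) was well clear of the highest control array (10.34).

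The difference between estradiol and control in c-kit+ cells was 1.32 (SE 0.18, 95% interval 0.94 to 1.71), which is 2.50-fold with an interval of 1.92 to 3.27. In CD44+ cells it was 1.43 (SE 0.18, 95% interval 1.05 to 1.82), which is 2.70-fold with an interval of 2.07 to 3.53. Over both fractions the mean difference was 1.38 (SE 0.13), or 2.60-fold. The effect in c-kit+ cells minus that in CD44+ cells was -0.11 (SE 0.25, 95% interval -0.65 to 0.43), an interval that includes 0. The estradiol values are those the gene was chosen for. For background, 0.181% of all genes passed an adjusted p of 0.05 for estradiol in c-kit+ cells, 33 of 18193, and 0.291% in CD44+ cells, 53 of 18193.

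The spread around these means was uneven. Kdm6b had a standard deviation of 0.14 in c-kit+ estradiol and 0.35 in c-kit+ control arrays, and of 0.09 in CD44+ estradiol and 0.30 in CD44+ control arrays (n = 3 each). In both fractions the lowest control array was control replicate 3. Without both of these arrays, an alternative chosen after the data were seen, the differences were 1.13 in c-kit+ and 1.31 in CD44+ cells. Leaving out any 1 array gave 1.13 to 1.46 in c-kit+ and 1.31 to 1.60 in CD44+ cells.

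**Figure D1:**
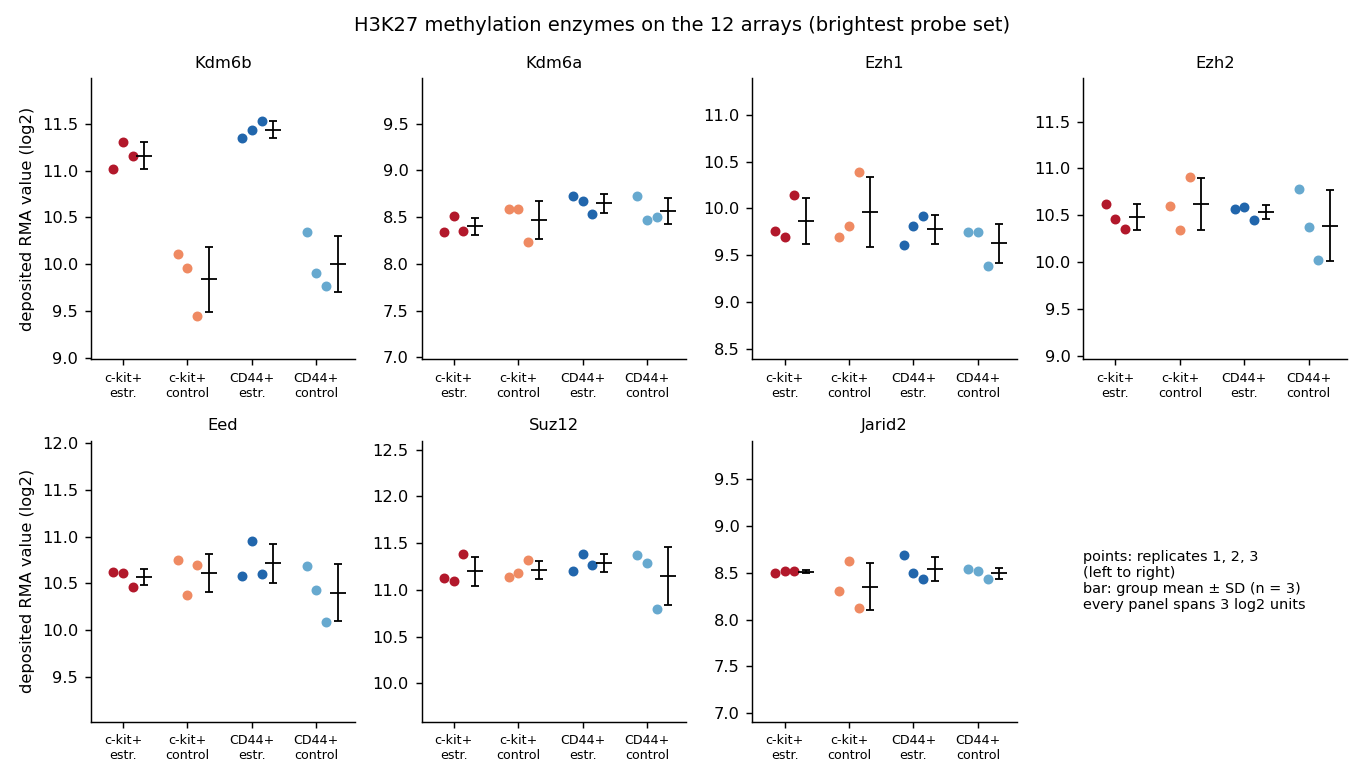
Log2 levels of the 7 genes on each of the 12 arrays, by group, with estradiol left of control within each fraction; points are replicates 1 to 3, and bars are group means ± SD (n = 3). The estradiol arrays of Kdm6b (11.02 to 11.53), a gene chosen for its estradiol differences, lie above its control arrays (9.44 to 10.34). Within each fraction the estradiol and control arrays of the other 6 genes overlap. The share of all genes whose arrays overlap was not counted.

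At the brightest probe set the mean Kdm6b level ran from CD44+ estradiol (11.43) through c-kit+ estradiol (11.16) and CD44+ control (10.00) to c-kit+ control (9.84). Both control groups overlapped. The estradiol groups did not overlap, since the highest c-kit+ array read 11.31 and the lowest CD44+ array 11.35. This gap was not past the test: c-kit+ minus CD44+ was -0.27 in estradiol cultures (SE 0.18, 95% interval -0.66 to 0.11, limma adjusted p = 0.740) and -0.16 in control cultures (95% interval -0.55 to 0.22, adjusted p = 0.767).

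Kdm6b is represented by a further 2 probe sets that name it alone, and they gave the same direction with other sizes. Probe set 1447612_x_at read 9.08, 8.91 and 8.84 with estradiol in c-kit+ cells, against 8.30, 7.85 and 7.93 in control cells, a difference of 0.91 with no overlap. In CD44+ cells it read 8.66, 8.81 and 9.16 with estradiol, against 8.50, 8.39 and 8.64 in control cells, a difference of 0.36, with the groups parted only by 8.66 and 8.64. The size at this probe set thus leaned to c-kit+ cells.

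The third probe set, 1442643_at, leaned the other way. In c-kit+ cells it read 8.48, 8.80 and 8.13 with estradiol, against 8.43, 6.90 and 8.42 in control cells, a difference of 0.56 (SE 0.34) with overlapping groups. On the CD44+ arrays the levels were 8.79, 8.65 and 8.58 with estradiol, against 8.03, 7.39 and 7.32 in control cells, a difference of 1.09 with no overlap. The 3 probe sets therefore share a sign in both fractions and disagree on which fraction shows the larger difference. Which fraction read higher differed too. The c-kit+ mean was above the CD44+ mean at 1447612_x_at with estradiol (8.94 against 8.88) and at 1442643_at in control cells (7.91 against 7.58). In the other culture of each probe set CD44+ cells read higher, as at the brightest. When a gene was read as the mean of its probe sets, the Kdm6b difference was 0.93 in c-kit+ and 0.96 in CD44+ cells.

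**Figure D2:**
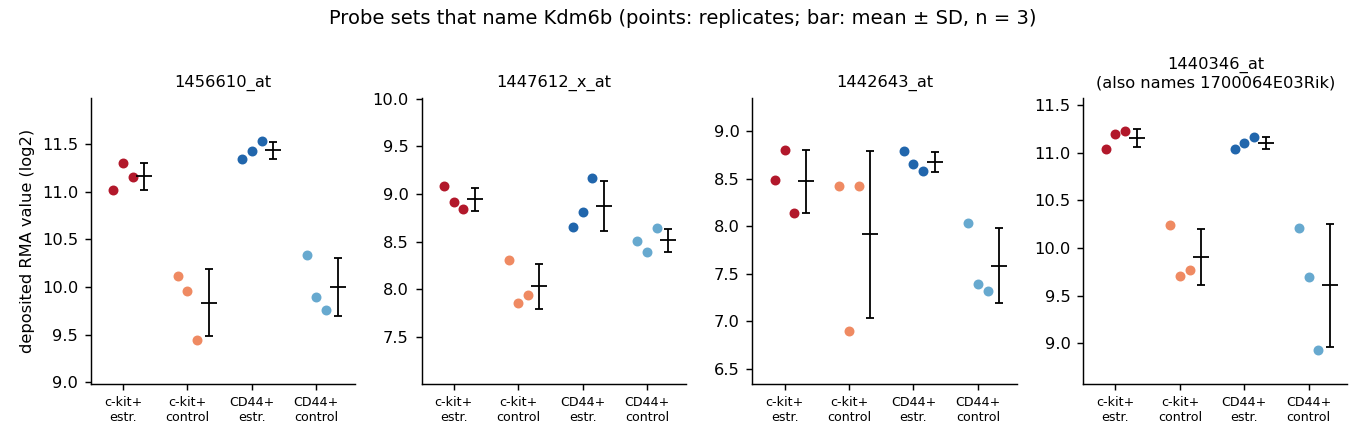
Log2 levels of the 3 probe sets that name Kdm6b alone and of 1440346_at, which names a second symbol too, by group, with estradiol left of control; points are replicates and bars are group means ± SD (n = 3). All differences between estradiol and control are positive, from 0.36 to 1.49, and the smaller ones belong to 1447612_x_at in CD44+ cells (0.36) and 1442643_at in c-kit+ cells (0.56).

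Kdm6a, the X-linked demethylase of the same mark, read 8.34, 8.51 and 8.35 with estradiol in c-kit+ cells, against 8.59, 8.58 and 8.23 in control cells. The CD44+ fraction gave 8.73, 8.68 and 8.54 with estradiol, against 8.73, 8.47 and 8.50 in control cells. The groups overlapped in both fractions, and the sign of the difference turned between them. It was -0.07 in c-kit+ cells (SE 0.12, 95% interval -0.33 to 0.19, limma adjusted p = 0.999) and 0.09 in CD44+ cells (95% interval -0.18 to 0.35, adjusted p = 0.954). The interval in c-kit+ cells allows a level between 0.796 and 1.14 times that of the control cells.

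Of the 4 Kdm6a probe sets the dimmest, 1440524_at, had the lowest p in CD44+ cells. It read 4.70, 4.66 and 4.84 with estradiol, against 4.90, 5.11 and 5.28 in control cells, a difference of -0.36 that did not pass when all probe sets were tested on their own (adjusted p = 0.760). Between the fractions the second brightest Kdm6a probe set, 1427235_at, had the sign opposite to that of the brightest, 0.36 in estradiol and 0.40 in control cultures, and did not pass either (adjusted p = 0.561 and 0.329). The Y-linked copy of Kdm6a, Uty, read 3.36 to 3.55 on all 12 arrays of these female cells.

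Ezh1, the methyltransferase that predominates in cells that divide little, read 9.76, 9.69 and 10.14 with estradiol in c-kit+ cells, against 9.69, 9.81 and 10.39 in control cells. CD44+ cells gave 9.61, 9.81 and 9.91 with estradiol, against 9.74, 9.75 and 9.39 in control cells. Replicate 3 was the highest array of both c-kit+ groups and the lowest of the CD44+ control group, and the groups overlapped throughout. The estradiol differences were -0.10 (SE 0.18, 95% interval -0.50 to 0.30) in c-kit+ and 0.15 (95% interval -0.25 to 0.55) in CD44+ cells, with limma adjusted p = 0.999 and 0.954.

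Ezh2, the methyltransferase of dividing cells, read 10.62, 10.46 and 10.35 with estradiol in c-kit+ cells, against 10.60, 10.35 and 10.91 in control cells. In CD44+ cells it read 10.57, 10.59 and 10.44 with estradiol, against 10.78, 10.37 and 10.02 in control cells. The control arrays spread more widely than the estradiol arrays in both fractions and covered their whole range. The differences were -0.14 (SE 0.18, 95% interval -0.53 to 0.25, limma adjusted p = 0.999) and 0.14 (95% interval -0.24 to 0.53, adjusted p = 0.954). Over both fractions they cancelled to 0.00.

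Eed, the subunit that binds trimethylated H3K27 and stimulates the complex, read 10.62, 10.62 and 10.47 with estradiol in c-kit+ cells, against 10.75, 10.37 and 10.70 in control cells. On the CD44+ arrays the levels were 10.58, 10.96 and 10.60 with estradiol, against 10.69, 10.43 and 10.09 in control cells. In CD44+ cells the difference was 0.31 (SE 0.16, 95% interval -0.03 to 0.66, limma adjusted p = 0.949). In c-kit+ cells the difference was -0.04 (95% interval -0.39 to 0.31, adjusted p = 0.999). Without both control replicates 3 the CD44+ value was 0.16.

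Suz12, the subunit that holds the complex together, read 11.12, 11.09 and 11.38 with estradiol in c-kit+ cells, against 11.13, 11.18 and 11.32 in control cells. The CD44+ fraction gave 11.21, 11.39 and 11.27 with estradiol, against 11.37, 11.29 and 10.79 in control cells. The means in c-kit+ cells nearly coincided. The differences were -0.01 (SE 0.14, 95% interval -0.32 to 0.30, limma adjusted p = 0.999) and 0.14 (95% interval -0.17 to 0.45, adjusted p = 0.950). Its 6 probe sets did not share a sign. In order of brightness, the first 3 gave -0.01, 0.04 and 0.07 in c-kit+ and 0.14, 0.16 and 0.22 in CD44+ cells. The dimmer ones gave 0.15, 0.36 and -0.04 in c-kit+ and -0.23, -0.23 and -0.07 in CD44+ cells. The 0.36 was that of 1420022_s_at, which read low, at 4.22 to 5.27. None passed the test.

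Jarid2, a substoichiometric partner that helps to bring PRC2 to its targets, read 8.50, 8.53 and 8.52 with estradiol in c-kit+ cells, against 8.30, 8.63 and 8.13 in control cells. CD44+ cells gave 8.69, 8.49 and 8.44 with estradiol, against 8.54, 8.52 and 8.43 in control cells. The c-kit+ estradiol arrays lay close together, inside the range of the control arrays. The differences were 0.16 (SE 0.12, 95% interval -0.11 to 0.43, limma adjusted p = 0.999) and 0.05 (95% interval -0.22 to 0.31, adjusted p = 0.976). Its 3 probe sets all gave positive differences, 0.16, 0.26 and 0.43 in c-kit+ and 0.05, 0.33 and 0.18 in CD44+ cells, in order of brightness, and none passed on its own. The first and second differed little in mean level (8.48 and 8.47), so the choice of the brightest was close here.

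With estradiol, 0 of the 6 genes other than Kdm6b passed in c-kit+ cells (limma adjusted p = 0.999 for each) and 0 of 6 in CD44+ cells, where the lowest adjusted p was that of Eed. None of the 6 had an unadjusted p under 0.05 in either fraction. Their 95% intervals in c-kit+ cells reached from 0.694-fold (Ezh2) to 1.35-fold (Jarid2), and the highest upper bound in CD44+ cells was 1.58-fold (Eed), so changes up to that size were not excluded. Over both fractions 0 of 6 passed by limma, where 0.951% of all genes passed, 173 of 18193. None of the 6 had an unadjusted p under 0.05 there at its brightest probe set. The differences ran between 0.00 (Ezh2) and 0.14 (Eed). When the 20 probe sets of these 6 genes were tested on their own, 0 passed in either fraction, with smallest adjusted p-values of 0.889 (Jarid2) in c-kit+ and 0.760 (Kdm6a) in CD44+ cells, and 1 probe set in each fraction had an unadjusted p under 0.05. Over both fractions 0 of the 20 passed by limma (smallest adjusted p = 0.478), and 3 had an unadjusted p under 0.05. These were Jarid2 1422697_s_at (0.29) and 1450710_at (0.30) and Kdm6a 1440524_at (-0.26).

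**Figure D3:**
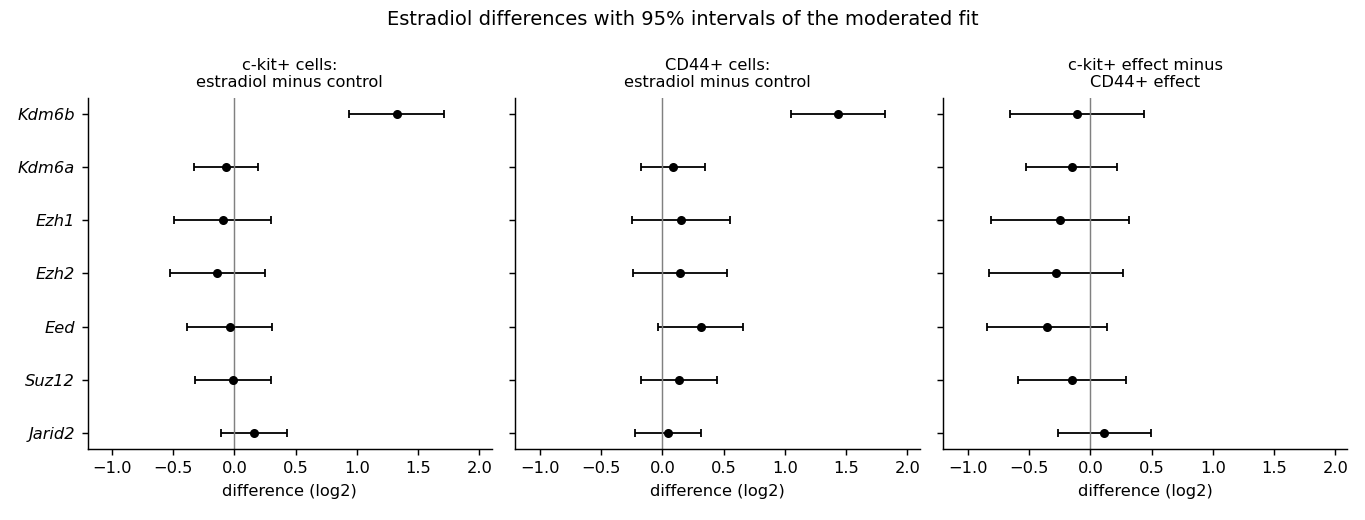
Estradiol minus control differences (log2) of the 7 genes in c-kit+ and CD44+ cells, and the c-kit+ effect minus the CD44+ effect, with 95% intervals from the fit over all 12 arrays. Kdm6b lies at 1.32 and 1.43; the intervals of the other 6 genes all include 0.

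The estradiol effect was also compared between the fractions, gene by gene, as the effect in c-kit+ cells minus that in CD44+ cells. The largest such difference of the 6 tested genes was that of Eed, -0.35 (95% interval -0.85 to 0.14), and the smallest that of Jarid2, 0.11. All 6 had an adjusted p of 1.000. Of all 18193 genes 0% passed this comparison by limma, and 296 had an unadjusted p under 0.05.

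Between the fractions themselves, 0 of the 7 genes passed in estradiol cultures, where 2.65% of all genes did, and 0 of 7 in control cultures, where 2.3% did. The largest difference in estradiol cultures was that of Kdm6b given above. Kdm6a followed at -0.25 (95% interval -0.51 to 0.01, limma adjusted p = 0.559), with its highest c-kit+ array (8.51) just below its lowest CD44+ array (8.54). In control cultures the largest difference was that of Ezh1, 0.34 (95% interval -0.06 to 0.74, adjusted p = 0.462). Ezh2 (0.23), Eed (0.21) and Suz12 (0.06) were also positive there, while Jarid2 (-0.14) and Kdm6a (-0.10) were negative. None of the 7 had an unadjusted p under 0.05 in either kind of culture at its brightest probe set. Of the 20 probe sets of the 6 genes other than Kdm6b, 0 passed between the fractions by limma in either kind of culture. In control cultures 2 of the 20 had an unadjusted p under 0.05, Suz12 1420020_at (-0.31) and Kdm6a 1427235_at (0.40). So did Kdm6b 1447612_x_at there (-0.48), which did not pass (limma adjusted p = 0.164). For each of the 6 genes other than Kdm6b, groups next to each other in mean level overlapped, and how often this holds over all genes was not counted.

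A pair of control arrays held many of the extremes. CD44+ control replicate 3 was the lowest of the 12 arrays for Ezh1, Ezh2, Eed and Suz12, the PRC2 core, and for 21.45% of all genes. The array of c-kit+ control replicate 3 was the lowest for Kdm6b, Kdm6a and Jarid2, the highest for Ezh1 and Ezh2, and the lowest for 18.67% and highest for 13.13% of all genes. Without both, the c-kit+ differences of the 6 tested genes were -0.18 (Kdm6a), 0.12 (Ezh1), 0.00 (Ezh2), 0.01 (Eed), 0.04 (Suz12) and 0.05 (Jarid2). In CD44+ cells they ran between -0.04 for Ezh2 and 0.16 for Eed. No call was made with or without them.

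Genes related to the H3K27 enzymes by complex, domain or substrate were read from lists. There were 9 further PRC2 subunits, 18 subunits of Polycomb repressive complex 1 (PRC1, which binds the mark) and 9 partners of Kdm6a in the MLL3/4 complexes. There were also 2 acetyltransferases, Ep300 and Crebbp, which acetylate the same lysine, and 25 other Jumonji C proteins. The 25 were listed for their domain and not for acting on H3K27, and they include the Y-linked Uty, which female cells lack. Of the 63 genes in all these lists 61 were measured. With estradiol 0 of 61 passed by limma in c-kit+ cells, 0 in CD44+ cells and 0 over both, where 0.181%, 0.291% and 0.951% of all genes passed. An unadjusted p under 0.05 was held by 4 of the 61 in c-kit+ cells, 3 in CD44+ cells and 6 over both, against 814, 978 and 1302 of the 18193 genes, shares near each other. Their median difference was -0.01 in c-kit+ and 0.01 in CD44+ cells, against 0.02 and 0.01 over all genes.

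Within these lists the genes with the smallest p-values are named. Rnf2, the ubiquitin ligase of PRC1, read 10.19, 10.19 and 10.52 with estradiol in c-kit+ cells, against 10.08, 9.92 and 9.74 in control cells, a difference of 0.39 (limma adjusted p = 0.637). In CD44+ cells it differed by 0.28 (adjusted p = 0.904). Cbx8, a PRC1 subunit that binds methylated H3K27, differed by -0.41 (adjusted p = 0.694) and -0.26, at levels of 4.55 to 5.36. These lie below the levels of Sry and just above those of the other Y-linked genes, which end at 4.54. Neither Rnf2 nor Cbx8 passed over both fractions (limma adjusted p = 0.144 and 0.198).

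Riox1, a Jumonji C hydroxylase, had the most negative c-kit+ difference of the 61, -0.47 (limma adjusted p = 0.663), and -0.08 in CD44+ cells. Rbbp5, a shared subunit of the MLL complexes, had the most negative CD44+ difference, -0.37 (adjusted p = 0.783), and -0.26 in c-kit+ cells. Aebp2 (0.09 and 0.31) and Phf19 (0.31 and 0.00), accessory subunits of PRC2, did not pass in c-kit+ or CD44+ cells. Neither did Dpy30 (-0.02 and -0.21), Jmjd1c (0.07 and 0.28), Ep300 (0.03 and -0.18) or Crebbp (0.02 and 0.30), each given in c-kit+ and then CD44+ cells. Kdm4a, an H3K9 and H3K36 demethylase, had the most positive CD44+ difference (0.47, adjusted p = 0.949). Between the fractions 0 of the 61 passed by limma in estradiol cultures and 0 in control cultures, where 2.65% and 2.3% of all genes passed. In the same order 3 and 5 of the 61 had an unadjusted p under 0.05, against 1778 and 2467 of the 18193 genes.

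**Figure D4:**
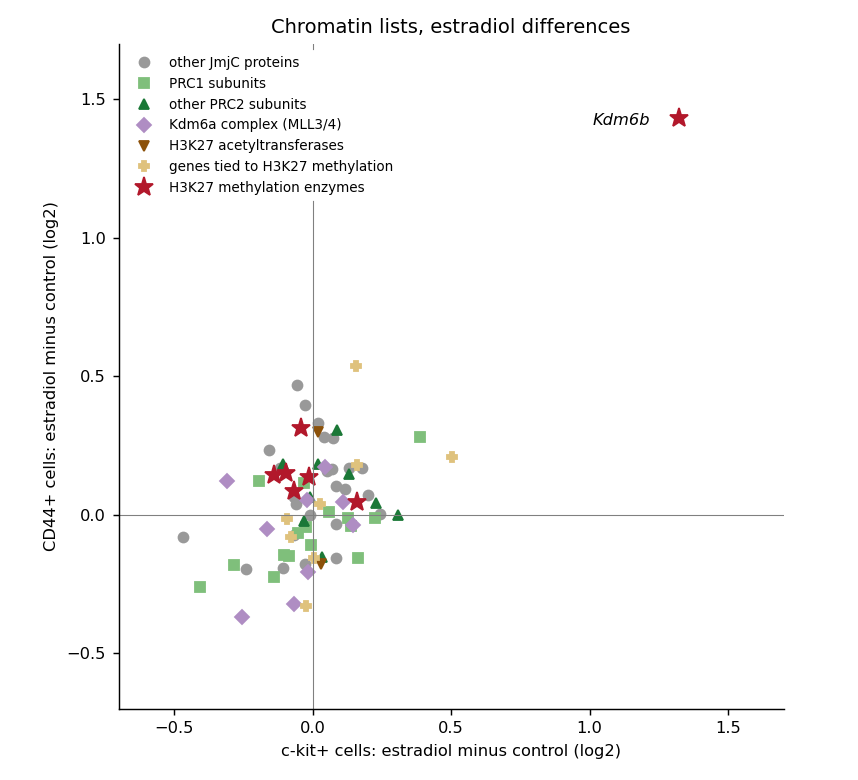
Estradiol minus control differences (log2) of the genes of each list in c-kit+ cells (x axis) and CD44+ cells (y axis); each point is a gene. The 61 measured genes of the 5 machinery lists lie between -0.47 and 0.47, while Kdm6b lies at 1.32 and 1.43.

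A list of 8 genes tied to H3K27 methylation by earlier work on macrophages, bone and growth arrest (Irf4, Arg1, Chil3, Retnla, Mrc1, Bmp2, Cdkn2a and Cdkn2b) was read beside the enzymes. With estradiol 0 of 8 passed by limma in c-kit+ cells and 0 of 8 in CD44+ cells, with medians of 0.01 in both, where 0.181% and 0.291% of all genes passed. An unadjusted p under 0.05 was held by Bmp2 in c-kit+ and Irf4 in CD44+ cells, 1 of 8 in each, against 814 and 978 of 18193 genes. The highest readings of Arg1 (3.664), Chil3 (4.208), Retnla (4.215) and Cdkn2a (3.995) lay below 4.54, where the Y-linked genes without Sry end. At such levels a difference could hardly show, so for these genes the counts and medians say little. Irf4 (4.27 to 5.53) and Bmp2 (5.08 to 6.10) read within the full range of the Y-linked genes on all 12 arrays. Without Sry that range ends at 4.54, below all Bmp2 values and all Irf4 values of CD44+ cells (4.63 to 5.53). The Irf4 values of c-kit+ cells (4.27 to 4.64) lie around it. How near to background these signals lie is thus not settled, and the sizes of their differences are uncertain. Irf4, a transcription factor of alternatively activated macrophages and a reported Kdm6b target, read 5.53, 5.21 and 5.06 with estradiol in CD44+ cells, against 4.91, 4.65 and 4.63 in control cells. These groups did not overlap, and the difference of 0.54 did not pass (limma adjusted p = 0.168). Bmp2, a bone morphogenetic protein, differed by 0.50 in c-kit+ cells (adjusted p = 0.707) and 0.21 in CD44+ cells.

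Between the fractions 3 of these 8 genes passed in estradiol cultures, where 2.65% of all genes did, and 2 of 8 in control cultures, where 2.3% did. Cdkn2b, a cell cycle inhibitor gene under Polycomb control in many cells, was lower in c-kit+ cells by a log2 difference of -1.47 in estradiol cultures (SE 0.24, limma adjusted p = 0.003) and -1.45 in control cultures (adjusted p = 0.005). It read 6.89, 6.54 and 6.73 in c-kit+ estradiol against 8.37, 7.81 and 8.40 in CD44+ estradiol arrays, and 6.66, 6.53 and 6.50 in c-kit+ control against 8.15, 7.38 and 8.50 in CD44+ control arrays. With the Gapdh reading as a covariate the control difference was the same size and no longer passed (adjusted p = 0.0566), nor did it with the arrays of that comparison alone (adjusted p = 0.0545). With array weights it was smaller, -0.89, and passed (adjusted p = 0.0351).

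Mrc1, the macrophage mannose receptor, was higher in c-kit+ cells by 0.66 in estradiol (limma adjusted p = 0.032) and 0.66 in control cultures (adjusted p = 0.035). In estradiol cultures its call was lost on leaving out c-kit+ estradiol replicate 1 or 3 or any CD44+ estradiol replicate, with differences of 0.52 to 0.73. In control cultures it was lost without c-kit+ estradiol replicate 1, c-kit+ control replicate 1 or 3 or any CD44+ control replicate, with differences of 0.56 to 0.72. The Gapdh covariate also ended the call in estradiol (0.61, adjusted p = 0.204) and control cultures (0.61, adjusted p = 0.258), and in control cultures so did quantile normalization (0.50, adjusted p = 0.128), the arrays of that comparison alone (0.66, adjusted p = 0.0768) and leaving out both control replicates 3 (0.55, adjusted p = 0.210). Irf4 was lower in c-kit+ cells in estradiol cultures (-0.72, SE 0.13, adjusted p = 0.007) and had -0.34 in control cultures (adjusted p = 0.246). With the mean of its probe sets the estradiol-culture value was -0.18 and did not pass. Its brightest probe set reads low, at 4.27 to 4.64 in c-kit+ cells, where the Y-linked genes without Sry reach 4.54. The mesenchymal markers and the Gapdh reading move with these differences between fractions, and, beyond that covariate, their part in them was not tested.

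A mean over osteoclast markers was higher on the estradiol arrays of both fractions, but 1 of its genes alone passed. The mean of 3 osteoclast markers (Acp5, Ctsk and Calcr) was 6.81 to 6.96 in c-kit+ estradiol against 6.46 to 6.67 in c-kit+ control arrays, and 6.89 to 7.18 in CD44+ estradiol against 6.57 to 6.62 in CD44+ control arrays. Over both fractions 1 of the 3 passed, where 0.951% of all genes did: Acp5, tartrate-resistant acid phosphatase, was higher by 0.87 (limma adjusted p = 0.003). Ctsk, the protease cathepsin K, did not pass (0.37, adjusted p = 0.493) and read 8.27, 8.35 and 8.22 in c-kit+ estradiol against 7.59, 8.09 and 8.63 in c-kit+ control arrays, which overlap. Its CD44+ arrays did not overlap, at 9.07, 9.21 and 9.43 with estradiol against 8.69, 8.68 and 8.65 in control cells. The CD44+ difference of 0.56 did not pass (limma adjusted p = 0.605). Calcr, the calcitonin receptor of mature osteoclasts, read 3.30 to 3.64 on all 12 arrays, within the range of the Y-linked genes, and differed by -0.02. Of the 8 macrophage markers 1 passed over both fractions, Cd14, a co-receptor for lipopolysaccharide (0.43, adjusted p = 0.015). Its call was lost without c-kit+ estradiol replicate 2 (adjusted p = 0.0558), CD44+ estradiol replicate 2 (0.0530) or CD44+ estradiol replicate 3 (0.0575). The part of these markers in the Kdm6b values was not tested.

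The genes whose pattern over the 12 arrays was most like that of Kdm6b were found by the root mean square difference of log2 values, each gene centred on its own mean. Of 18192 genes the nearest was Tnfsf9, the 4-1BB ligand, at 0.202. Next came Nfkbie, an inhibitor of NF-κB (0.231), Rasgef1b, a guanine nucleotide exchange factor (0.232), Cd69, an activation marker of leukocytes (0.233), and Il1b, the cytokine interleukin-1β (0.238). The median over all genes was 0.740. The other 6 genes of the H3K27 set lay around that median, between 0.671 for Jarid2 and 0.785 for Ezh1, and a gene with the same value on every array would lie at 0.727.

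Each of the 5 nearest genes was higher with estradiol in both fractions, which the measure favours because the Kdm6b pattern is mostly that difference. Tnfsf9 read 11.53, 11.75 and 11.70 in c-kit+ estradiol against 11.06, 10.48 and 10.46 in c-kit+ control arrays, and 11.70, 11.95 and 11.90 in CD44+ estradiol against 11.10, 10.58 and 10.41 in CD44+ control arrays. As for Kdm6b, control replicate 1 was the highest control array in both fractions. The differences in c-kit+ and CD44+ cells were 0.99 and 1.15 for Tnfsf9, 1.17 and 1.19 for Nfkbie, 1.21 and 1.05 for Rasgef1b, 1.17 and 1.22 for Cd69, and 1.14 and 1.33 for Il1b. Likeness over 12 arrays is given as a description.

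**Figure D5:**
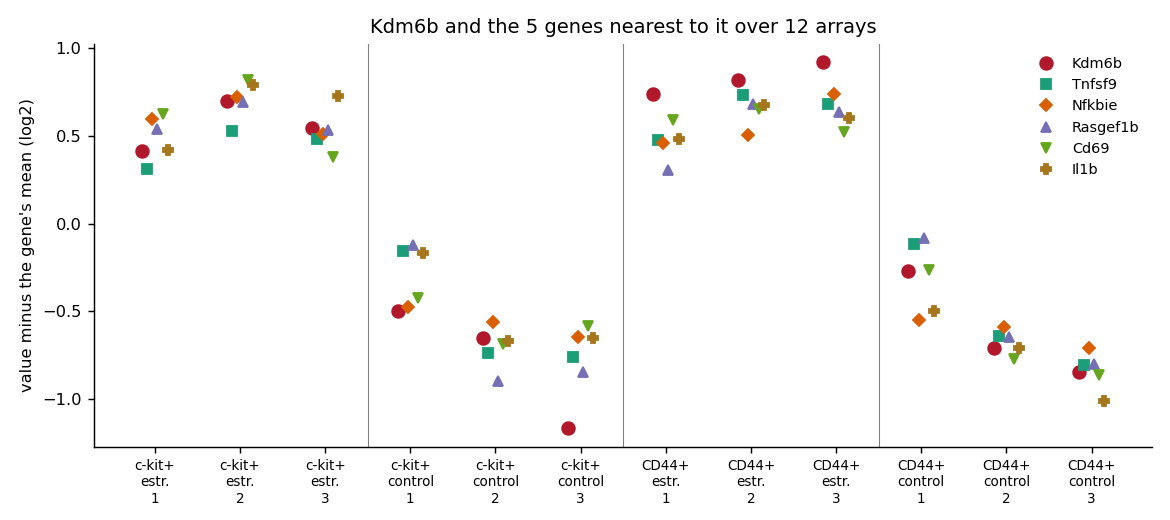
Log2 levels of Kdm6b and of the 5 genes nearest to it, each centred on its own mean, over the 12 arrays by group, with estradiol left of control; each point is a gene on 1 array. All 6 genes sit high on the estradiol arrays and low on the control arrays of both fractions.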

How the data were processed

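The authors deposited log2 expression values made with RMA, per the submitters' processing notes, which name no version. RMA corrects background, quantile-normalizes probes and summarises each probe set, so levels are relative within the 12 arrays. Per the labels' protocols, RNA was amplified in 2 cycles and hybridized to Affymetrix arrays. Values ran from 2.47 to 14.81, array medians from 4.75 to 4.84, with 0 missing. Having 3 arrays a group limits the precision.

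Of 45101 probe sets 34945 named 1 gene and were used; 932 with several genes, 9160 with no gene listed here and 64 controls were left out. Genes (18193) were read from their brightest probe set, with no filter or renormalization. Among the probe sets that name 1 gene, RefSeq's table gave no symbol to update.

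limma 3.58.1 (R 4.3.3) fitted 1 mean per group over all 12 arrays, and p-values were adjusted by Benjamini-Hochberg over the 18193 genes, with 0.05 as threshold. There were 6 comparisons: estradiol minus control in each fraction, their difference and their mean, and c-kit+ minus CD44+ cells in estradiol and in control cultures. The pipeline was tested on simulated data.

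The 7 genes and all lists were chosen with earlier results of these data known. Named are the 7 genes with all their probe sets, the 5 genes most like Kdm6b, Kit and Cd44, and of each list the genes that passed or the 2 of smallest p. Kdm4a, Csf1r, Itgam, Calcr, Lum, Ngp, Uty, Arg1, Chil3, Retnla and Cdkn2a fall outside this rule, and their values are given after they were seen. Cd44 read 11.76 to 12.46 in both fractions. Python 3.11.15, pandas 2.3.3 and matplotlib 3.10.9 made tables and figures.

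Equal replicate numbers were held to pair arrays where all 3 correlations of deviations from the group means exceeded 0.1. CD44+ estradiol and control arrays met this (0.303, 0.368 and 0.322), so the count for that comparison with the replicate number as a block, 101 genes, stands beside the 53. The estradiol arrays of the 2 fractions met it too (0.447, 0.192 and 0.312), and with the block 662 genes passed between fractions in estradiol cultures, against 483. The c-kit+ estradiol and control arrays (0.345, 0.092 and 0.253) did not.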

Additional observations from a re-analysis of the deposited data

Results flagged for a closer look

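A probe set outside the comparisons carried the same signal as Kdm6b. Probe set 1440346_at names Kdm6b together with 1700064E03Rik, a symbol that the RefSeq table now lists as a synonym of Kdm6b, and it was left out because it names 2 genes. It read 11.04, 11.20 and 11.23 with estradiol in c-kit+ cells, against 10.24, 9.70 and 9.77 in control cells, a difference of 1.25. In CD44+ cells it read 11.04, 11.10 and 11.17 with estradiol, against 10.21, 9.70 and 8.93 in control cells, a difference of 1.49. No estradiol array overlapped a control array in either fraction. Unlike at the brightest probe set, the c-kit+ mean was above the CD44+ mean with estradiol (11.16 against 11.10) and in control cells (9.90 against 9.61). These values come from the same RNA as those of the other Kdm6b probe sets and are no separate replicate. Groups of 3 arrays were not searched for outlying arrays.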

How the results depend on the processing

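The number of tested genes of the H3K27 set past the threshold was 0 in all 6 comparisons under every one of 23 alternative settings (136 counts), and the lowest adjusted p of any of them under any setting was 0.0879. Of 952 values of the 7 genes under these alternatives, 75 changed sign without a call, and 3 moved by more than the spread between replicates: Kdm6b as the mean of its probe sets was 0.93 in c-kit+ cells, 0.96 in CD44+ cells and 0.95 over both. The replicate block, for which only the CD44+ arrays met the pairing criterion among the estradiol comparisons, changed no call of a member: with it Kdm6b had 1.32 in c-kit+ and 1.43 in CD44+ cells. Over all genes the counts moved more. For estradiol in c-kit+ cells (33) the count was 55 with array weights, 62 with the block, 2 with the arrays of the comparison alone, 51 without both control replicates 3, 10 without c-kit+ estradiol replicate 2 and 21 without c-kit+ estradiol replicate 3. For CD44+ cells (53) it was 1405 with weights, 101 with the block, 97 without c-kit+ control replicate 3, 29 without CD44+ estradiol replicate 2, 22 without CD44+ estradiol replicate 3, 29 without CD44+ control replicate 2 and 30 without CD44+ control replicate 3. Over both (173) it was 523 with weights, 272 with the block, 275 without c-kit+ control replicate 3, 104 without c-kit+ estradiol replicate 2, 110 without CD44+ estradiol replicate 2 and 104 without CD44+ estradiol replicate 3. Between fractions in estradiol cultures (483) it was 250 among brighter genes, 779 with weights, 269 without c-kit+ estradiol replicate 2 and 273 without CD44+ estradiol replicate 1; in control cultures (418) it was 1058 with weights, 693 with the block, 254 with the Gapdh covariate, 196 with the arrays of the comparison alone, 271 without both control replicates 3, 238 without c-kit+ control replicate 1 and 221 without CD44+ control replicate 3. The cause was not tested. Testing every probe set on its own and leaving out both control replicates 3 were added after the data were seen. Background correction and scan batch were not varied, since no scanner files were used here.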

Other observations

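Of 46 marker genes of 10 cell types, 9 passed between the fractions in estradiol cultures, where 2.65% of all genes did, and 9 in control cultures, where 2.3% did. Col1a2, a type I collagen chain, was lower in c-kit+ cells by a log2 difference of -3.54 in estradiol and -3.37 in control cultures. Sparc, Col3a1 and Cxcl12 were lower in both kinds of culture too, and these 4 calls held under all 23 alternatives, as did that of Cd74, lower in control cultures. Pdgfrb and Col1a1 were lower in both kinds of culture. Their calls were lost in estradiol cultures without c-kit+ estradiol replicate 2 or CD44+ estradiol replicate 1, and in control cultures under 3 (Pdgfrb) and 7 (Col1a1) of 23 alternatives, among them leaving out c-kit+ control replicate 1 or CD44+ control replicate 3 for both genes and CD44+ control replicate 1 for Col1a1. H2-Ab1, an MHC class II chain, was lower in both kinds of culture, with the call lost under 4 alternatives in estradiol cultures (without replicate 1 or 3 of c-kit+ or 1 or 2 of CD44+ estradiol) and 7 in control cultures (any c-kit+ or CD44+ control replicate left out but CD44+ control replicate 3, median centring, Gapdh covariate). Cd34 and Ctsk, lower in estradiol cultures, lost their calls under 6 and 5: Cd34 on leaving out any 1 estradiol array but CD44+ replicate 3 and with median centring, Ctsk with the Gapdh covariate (adjusted p = 0.184) and on leaving out any 1 of the c-kit+ estradiol replicates or CD44+ estradiol replicate 3. Fcgr1, higher in control cultures (0.71, limma adjusted p = 0.021), lost its call under 8, among them the mean of its probe sets (adjusted p = 0.0593), quantile normalization (adjusted p = 0.0847) and leaving out any control array but c-kit+ control replicate 2. The mean of 6 stem and progenitor markers, Kit included, was 5.42 to 5.67 in c-kit+ estradiol and 5.45 to 5.68 in c-kit+ control arrays. In CD44+ arrays it was 5.78 to 5.91 with estradiol and 5.75 to 5.96 in control, so every c-kit+ array lay lower. Cd34 had the largest difference of the 6, -1.43 in estradiol and -1.28 in control cultures. None of 5 mast cell, 6 neutrophil, 2 measured B cell, 2 measured T cell and 2 measured erythroid markers passed in any of the 6 comparisons. The means of these lists stayed at or below 5.32 on every array, but single genes read higher on some. Cpa3, a mast cell marker, read 6.31 on c-kit+ estradiol replicate 1 and 3.73 to 4.19 elsewhere. Ngp, a neutrophil marker, read 4.85 to 7.08 on CD44+ estradiol, 5.48 to 6.48 on CD44+ control and 4.14 to 5.04 on c-kit+ arrays.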
